A study of Mus musculus with 69 samples.

Results

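The genes described here are 10 enzymes, carriers and cofactors of steroid hormone synthesis, measured in ovary, pituitary and hypothalamus of female mice. They were chosen by name (Star, Cyp11a1, Fdx1, Hsd3b1, Akr1c18, Hsd17b7, Cyp17a1, Cyp19a1, Hsd17b1 and Srd5a1), not by a cutoff on a measured value, but with earlier results of these data known. All 10 were found among the 55964 gene IDs of the deposited tables. The WT groups have unaltered Zeb1 alleles. In 200H mice 1 Zeb1 allele, and in 200M mice both, hold base changes that remove the sites through which the microRNAs miR-200a and miR-200b lower Zeb1, a transcription repressor. All mice were on a C57BL/6J background, were killed in proestrus as read from vaginal cytology, and descend from 2 targeted embryonic stem cell clones (3C5 and 6B6), both of which supplied each cohort and which the labels do not tell apart. The knock-in is present in every cell of the animal, so an ovary library cannot separate effects that arise in the ovary from effects of pituitary or hypothalamus.

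The young cohort held virgin females of 8 to 12 weeks, sequenced as stranded, ribosomal-RNA-depleted libraries, and the older cohort held females of 28 to 36 weeks after a breeding trial, sequenced as unstranded poly(A) libraries. Age, breeding history and library chemistry therefore cannot be told apart. Breeding history also differed by genotype within the older cohort. The paper reports that most females with both alleles altered bore no litter in the trial, and that the rest had fewer litters than the other genotypes. Differences of that genotype in the older cohort therefore cannot be separated from litter history. There were 24 ovary libraries, 4 for each of the 3 genotypes in each cohort, with total counts of 6337205 to 12896366 in the young and 7985206 to 14655095 in the older cohort. Levels are given as counts per 1000000 (CPM) after TMM scaling, as mean ± SD with n = 4 for each ovary group unless stated. Differences are log2 fold changes with their standard error (SE), and a gene was called raised or lowered at an adjusted p under 0.05 in edgeR's quasi-likelihood test, adjusted over all genes tested.

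All steroid hormones are made from cholesterol. The carrier Star brings cholesterol into the mitochondrion, where Cyp11a1, fed with electrons by the ferredoxin Fdx1, cuts its side chain to give pregnenolone, and Hsd3b1 turns pregnenolone into progesterone. In the ovary these steps run in luteal cells of the corpus luteum, in theca cells and in interstitial cells. Theca cells add Cyp17a1, which makes androgens, and granulosa cells add Cyp19a1 (aromatase) and Hsd17b1, which make estrogens. Akr1c18 breaks down progesterone in corpora lutea at the end of their life, and Hsd17b7, also an enzyme of cholesterol synthesis, makes estradiol in the corpus luteum of rodents. Srd5a1 reduces progesterone and testosterone.

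The promoters of the 4 members that were lowered in young 200M ovaries are shown. Each window runs 5′ to 3′ on the gene's strand from 250 bases before to 50 bases after a RefSeq start site (GRCm38.p6), and capitals mark matches to the motifs searched.
Akr1c18, chr13:4150597-4150896, minus strand: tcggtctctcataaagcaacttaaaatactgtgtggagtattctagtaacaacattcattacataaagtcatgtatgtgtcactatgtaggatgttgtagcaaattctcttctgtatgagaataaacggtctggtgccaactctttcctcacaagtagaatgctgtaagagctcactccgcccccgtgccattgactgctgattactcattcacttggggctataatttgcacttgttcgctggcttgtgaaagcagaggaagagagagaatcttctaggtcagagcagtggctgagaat
Hsd17b7, chr1:169969156-169969455, minus strand: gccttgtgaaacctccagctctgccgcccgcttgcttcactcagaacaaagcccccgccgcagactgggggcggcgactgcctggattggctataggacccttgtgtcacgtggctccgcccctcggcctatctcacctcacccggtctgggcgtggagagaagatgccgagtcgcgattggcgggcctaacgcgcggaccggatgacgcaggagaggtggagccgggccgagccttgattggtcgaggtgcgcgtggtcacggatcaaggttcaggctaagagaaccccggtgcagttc
Fdx1, chr9:51963553-51963852, minus strand: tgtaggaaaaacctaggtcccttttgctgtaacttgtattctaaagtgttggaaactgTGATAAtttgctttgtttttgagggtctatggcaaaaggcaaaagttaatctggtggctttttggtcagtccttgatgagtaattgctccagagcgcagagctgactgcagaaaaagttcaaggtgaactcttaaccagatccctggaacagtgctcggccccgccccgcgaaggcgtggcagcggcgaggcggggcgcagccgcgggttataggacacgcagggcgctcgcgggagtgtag
Cyp11a1, chr9:57997774-57998073, plus strand: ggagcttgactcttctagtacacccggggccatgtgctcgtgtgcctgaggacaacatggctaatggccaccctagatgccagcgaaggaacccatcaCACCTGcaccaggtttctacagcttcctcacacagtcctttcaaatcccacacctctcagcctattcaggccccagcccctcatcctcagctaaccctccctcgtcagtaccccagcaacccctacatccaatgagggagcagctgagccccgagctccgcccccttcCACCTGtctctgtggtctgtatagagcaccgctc

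Of the members, 7 had 10 such windows among 32851 in the RefSeq table, while Star, Cyp17a1 and Hsd17b1 had none there. The letters CAGGTG, 1 form of the E-box that ZEB1 binds, occurred at 2 places in the Cyp11a1 window, on the minus strand, starting at bases -152 and 17 from the start site, and in 20.2% of all windows on either strand. A second Cyp11a1 window, chr9:58014702-58015001 in the same table, held none. The printed window lies upstream of the Cyp11a1 gene as GENCODE places it and the second lies inside it, so neither covers the GENCODE start, and the counts do not tell which start is used. The E-box form CAGGTA was in no member window and in 12% of all. Of the motifs for activators of steroid genes, CAAGGTC and CAAGGCC (NR5A receptors) lay in 3.96% and 6.19% of all windows and the second of them in 1 Cyp19a1 window, the GATA motifs AGATAA and TGATAA in 11.2% and 9.05% of all and in the Hsd3b1 and Fdx1 windows, respectively, and TGACGTCA (CRE) in 1.79% of all and in no member window. The Akr1c18 and Hsd17b7 windows held no match to any of the 7 motifs on either strand. A match is a description of the letters and no evidence of binding.

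Zeb1 itself did not pass the test in ovary, with 199.7 ± 14.8 CPM in young WT, 191.5 ± 13.9 in 200H and 191.1 ± 8.22 in 200M, and 90.9 ± 12.6, 81.2 ± 10.6 and 78.3 ± 14.5 CPM in the older groups. The knock-in changes bases and removes no counted exon, so these counts do not check the genotype labels. The granulosa, theca, oocyte and luteal marker lists were detected in all 24 ovary libraries, and adrenal cortex markers, which would come with adrenal tissue, summed to at most 7.2 CPM in young and 1.2 CPM in older libraries. Pituitary markers summed to 1.1 to 39.8 CPM in older WT ovaries, 0.48 to 1.37 in older 200H and 0.15 to 1.12 in older 200M. In young ovaries they reached at most 2.68 CPM, and their source was not tested. Oviduct and fat markers varied between libraries. The oviduct glycoprotein Ovgp1 was at 11.9 CPM in young 200H replicate 1 and 11.4 in young 200M replicate 4 against 180.2 to 524.4 in the other young libraries, and ran from 2.96 to 2861.1 CPM in the older ones. In older 200M replicate 3 Ovgp1 was at 2715.2 CPM and the fat gene Adipoq at 158.8 CPM, while the granulosa gene Inhbb was at 56.5 CPM against 424.2 to 675.1 in the other 200M libraries.

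Per kilobase of exon, the young WT ovary held most Hsd3b1, with a mean of 2245.5 CPM per kilobase, then Cyp11a1 with 483.2, both apart from the rest. Fdx1 (83.8), Hsd17b1 (82.4), Akr1c18 (68.9) and Cyp17a1 (68.0) followed with ranges that overlapped, and Star (38.6), whose range overlapped those of Cyp17a1 above and Cyp19a1 (25.1) below it, came next. Hsd17b7 (16) and Srd5a1 (12.8) came last, with ranges that overlapped each other and lay below that of Cyp19a1. In older WT ovaries Cyp11a1 (4174.0 CPM per kilobase) and Hsd3b1 (3328.4) led, with ranges that overlapped each other and that of Akr1c18. Akr1c18 (1500.9, from 328.6 to 3962.2) and Star (477.8, from 134.9 to 778.9) varied most among the 4 mice relative to their means, together with Cyp19a1 (70.0, from 20.2 to 156.3). Hsd17b7 (31.3) and Srd5a1 (25.8) were again lowest. Levels of the cohorts stand side by side here and were not compared.

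**Figure D1:**
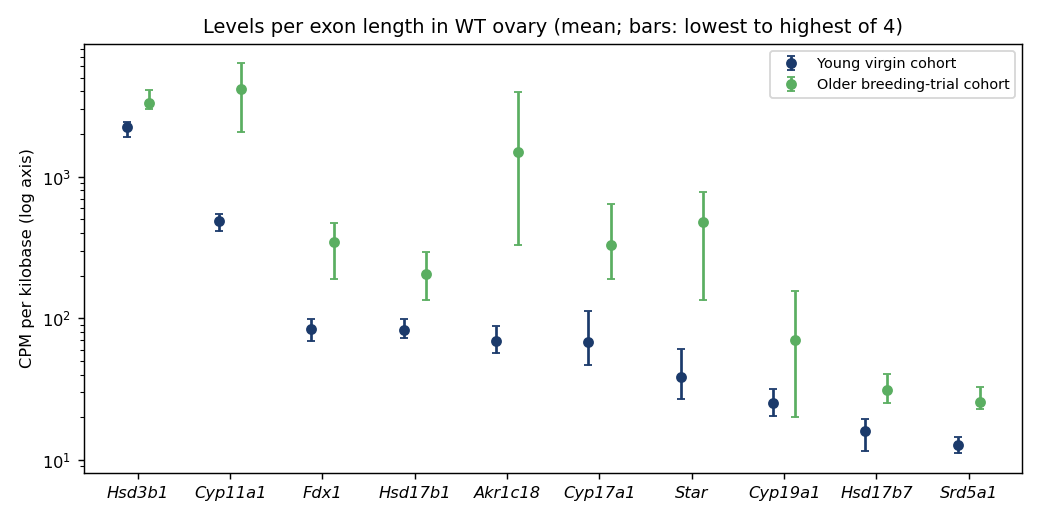
Mean CPM per kilobase of exon (log axis) of the 10 members in the 4 WT ovary libraries of each cohort, with bars from the lowest to the highest library. Hsd3b1 and Cyp11a1 stand above the other members in the young cohort, and the bars of Akr1c18, Star and Cyp19a1 are long in the older cohort.

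In young ovaries 4 of the 10 members were lowered in 200M against WT and none was raised. They were the luteal enzymes Akr1c18 and Hsd17b7 and 2 of the 4 genes of the shared progesterone steps, Cyp11a1 and Fdx1. For comparison, 2.58% of the 19250 genes tested were called and 1.7% were called lower. The same 4 members were lower in every 200M library than in every WT library, which held for 4.56% of genes. The median log2 fold change was -0.46 over the 10 members, all of which passed the filter on low counts, and 0.01 over all genes. In older ovaries 3 members were lowered in 200M against WT, Akr1c18, Star and Hsd17b7, and none was raised, where 2.71% of 17792 genes were called and 1.19% were called lower. In 4 members (these 3 and Fdx1) every 200M library lay below every WT library, against 5.55% of genes, and the median over the 10 members was -1.19 against 0.04 over all genes.

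**Figure D2:**
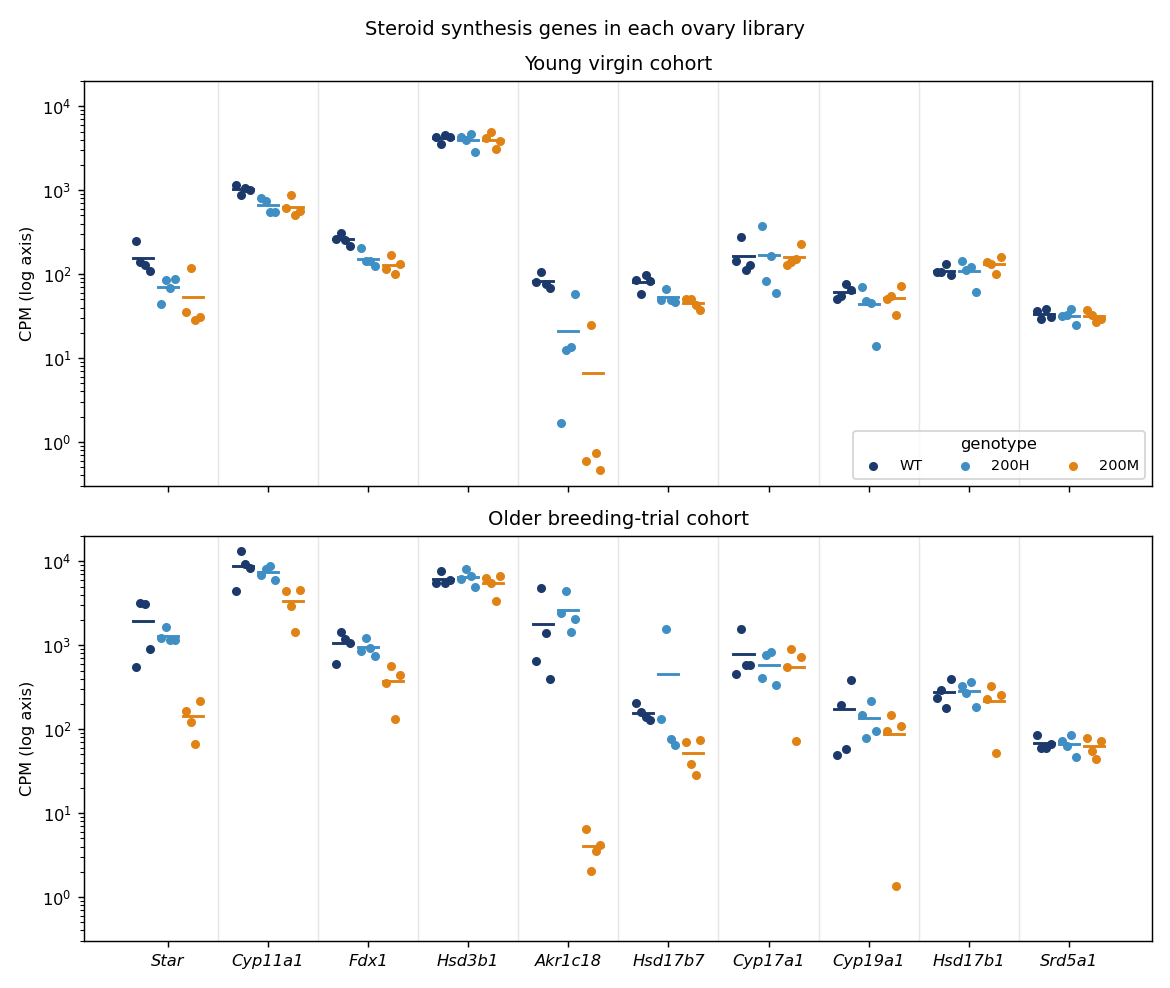
CPM (log axis) of each member in each of the 24 ovary libraries, 1 point per library and a line at the mean of each genotype. In both cohorts the 200M points of Akr1c18 and Hsd17b7 lie below the WT points, while those of Hsd3b1, Hsd17b1 and Srd5a1 overlap them.

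Akr1c18 (ENSMUSG00000021214, chr13:4132615-4150654, minus strand, GRCm38) showed the largest difference among the members in either cohort. In young WT ovaries it was at 81.5, 105.9, 77.0 and 68.1 CPM. In 200H it was at 1.66, 12.3, 13.7 and 57.3 CPM, and in 200M at 0.6, 24.8, 0.74 and 0.46 CPM. Every knock-in library lay below every WT library, and 3 of the 4 200M libraries, with 4 to 5 counts each, lay far below the remaining one, replicate 2. On the log2 scale 200M differed from WT by -3.49 (adjusted p = 0.0152, SE 0.65, edgeR). Without replicate 2 it was -7.1 (adjusted p = 2.64e-10, SE 0.24), and without replicate 1 or replicate 3 the adjusted p was 0.0564 or 0.0567. Replicate 2 was singled out by its level, so the fit without it is no independent test. DESeq2 gave 0.0828. The 200H difference of -1.97 (adjusted p = 0.466, SE 0.59) did not pass the test.

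In older ovaries Akr1c18 was at 648.8, 4782.3, 1418.5 and 396.6 CPM in WT and 2452.8, 4478.8, 1435.3 and 2060.3 CPM in 200H. In 200M it was at 6.49, 2.07, 3.52 and 4.13 CPM, from 17 to 58 counts. No 200M library came near the other groups, which overlapped each other. Older 200M differed by -8.80 from WT on the log2 scale (adjusted p = 0.00482, SE 0.99) and by -9.34 from 200H (adjusted p = 0.000146, SE 0.55), and 200H against WT was 0.53 (adjusted p = 0.87, SE 0.72). Both calls stood in each alternative run, including the fits without any 1 library. The 200M effect differed between cohorts by -5.27 (older minus young, SE 1.33), which did not pass the test of the interaction (adjusted p = 0.116). Without young 200M replicate 2 that difference was -1.7 (adjusted p = 0.711, SE 1.62). Akr1c18 lies in a cluster of related Akr1c genes, so reads shared with them could be missed or misassigned in counting.

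Hsd17b7 (ENSMUSG00000026675, chr1:169949535-169969241, minus strand), the other luteal enzyme, was at 85.9, 57.9, 97.2 and 81.7 CPM in young WT. It was at 48.5, 66.5, 49.6 and 46.4 CPM in 200H and 50.1, 51.2, 42.4 and 37.5 CPM in 200M. The 200M values lay below all WT values, and only 1 of the 4 200H values, replicate 2, reached the WT range. Against WT the log2 difference was -0.83 for 200M (adjusted p = 0.00874, SE 0.14) and -0.60 for 200H (adjusted p = 0.344, SE 0.15). The 200M call stood in each alternative run, including the fits without any 1 library.

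In older ovaries Hsd17b7 was at 202.8, 160.6, 140.9 and 127.2 CPM in WT and 70.1, 38.2, 28.4 and 73.7 CPM in 200M, which was -1.59 on the log2 scale (adjusted p = 0.0324, SE 0.31). The groups did not overlap. The call stood without WT replicate 1 or 200M replicate 3 and was lost in the other 6 of the 8 fits that left out 1 library, at adjusted p of up to 0.106, and was 0.353 with the 3 genotypes in 1 fit. The 200H libraries were at 132.0, 1544.3, 77.0 and 65.5 CPM, so that replicate 2 alone lay above every other ovary library. The difference of 200H from WT was 1.52 (adjusted p = 0.776, SE 0.96) and turned to -0.79 (adjusted p = 0.696, SE 0.26) without that library, and that of 200M from 200H moved from -3.12 (adjusted p = 0.225, SE 1.05) to -0.81 (adjusted p = 0.597, SE 0.37).

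Star (ENSMUSG00000031574, chr8:25806555-25815982, plus strand), the cholesterol carrier, was at 246.7, 141.2, 127.0 and 109.7 CPM in young WT ovaries, at 43.5, 84.8, 68.8 and 86.8 in 200H and at 35.7, 119.1, 28.2 and 31.2 in 200M. Here 200M replicate 2 lay within the WT range, and the other 3 lay below all WT and 200H values. For 200M the log2 difference was -1.52 (adjusted p = 0.0559, SE 0.39) and missed the threshold, and without replicate 2 it was -2.29 (adjusted p = 2.16e-05, SE 0.23). Since replicate 2 was singled out by its level, the fit without it is no independent test. Every 200H library lay below every WT library, and differed from it by -1.12 on the log2 scale (adjusted p = 0.307, SE 0.26).

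In older ovaries Star was at 545.7, 3151.5, 3139.9 and 895.0 CPM in WT, at 1207.7, 1653.8, 1166.9 and 1168.4 in 200H and at 165.8, 121.9, 66.2 and 214.1 in 200M. All 200M values lay below all others. Star differed in 200M by -3.77 from WT (adjusted p = 0.0222, SE 0.64) and by -3.21 from 200H (adjusted p = 0.00435, SE 0.34), while 200H against WT was -0.56 (adjusted p = 0.821, SE 0.51). The call against WT was lost in 5 of the 8 fits without 1 library (WT replicate 2 or 3, or 200M replicate 1, 2 or 4), with adjusted p of up to 0.0766, whereas the call against 200H stood in all 8. The 200M effect on Star differed between cohorts by -2.26 (adjusted p = 0.26, SE 0.80).

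Cyp11a1 (ENSMUSG00000032323, chr9:58006411-58027023, plus strand), which catalyses the first and rate-limiting enzymatic step, was at 1146.0, 880.7, 1067.6 and 1003.5 CPM in young WT. It was at 812.5, 750.9, 552.6 and 548.2 CPM in 200H and 607.6, 869.0, 502.6 and 560.8 CPM in 200M. Every knock-in library lay below every WT library, 200M replicate 2 by a small margin. Cyp11a1 differed from WT by -0.69 in 200M (adjusted p = 0.0185, SE 0.13) and by -0.61 in 200H (adjusted p = 0.254, SE 0.12), the latter called by DESeq2 (adjusted p = 0.00419). The 200M call was lost without WT replicate 1 or 4 and without 200M replicate 1 or 3, with adjusted p of up to 0.0864. That call was also lost with all 3 genotypes in 1 fit.

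In older ovaries Cyp11a1 was at 4403.4, 13333.7, 9394.0 and 8264.1 CPM in WT, at 6842.3, 8078.7, 8858.0 and 5951.0 in 200H and at 4378.3, 2975.3, 1438.1 and 4526.0 in 200M. The 200M values lay below all 200H values but overlapped the lowest WT value. Neither difference passed the test in edgeR, at -1.41 against WT (adjusted p = 0.125, SE 0.42) and -1.18 against 200H (adjusted p = 0.157, SE 0.34), and both passed in DESeq2 (adjusted p = 0.00555 and 0.00778).

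Fdx1 (ENSMUSG00000032051, chr9:51943306-51963556, minus strand), the electron donor of Cyp11a1, was at 262.5, 306.8, 256.9 and 213.5 CPM in young WT. It was at 203.6, 141.8, 143.9 and 123.7 CPM in 200H and 115.3, 170.8, 101.7 and 131.3 CPM in 200M, in each case below all WT values. Fdx1 differed from WT by -1.0 in 200M (adjusted p = 0.00435, SE 0.14), a call that stood in each alternative run, and by -0.75 in 200H (adjusted p = 0.215, SE 0.14). The 200H difference was called by DESeq2 (adjusted p = 0.000421) and in edgeR without 200H replicate 1 (-0.92, adjusted p = 0.00541). In older ovaries Fdx1 was at 591.7, 1452.1, 1193.0 and 1053.7 CPM in WT, 863.8, 1227.4, 940.8 and 752.0 in 200H and 355.0, 567.8, 131.8 and 437.8 in 200M. The 200M values lay below all others, but the differences of -1.52 from WT (adjusted p = 0.101, SE 0.42) and -1.36 from 200H (adjusted p = 0.142, SE 0.38) did not pass the test in edgeR. DESeq2 called both (adjusted p = 0.00276 and 0.00636).

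Hsd3b1 (ENSMUSG00000027871, chr3:98852194-98859794, minus strand), the last enzyme on the way to progesterone and the member with the highest CPM in young ovaries, was called in none of the 6 ovary comparisons. It was at 4165.4 ± 437.4 CPM in young WT, 3965.8 ± 774.0 in 200H and 3992.4 ± 757.9 in 200M, and at 6174.1 ± 977.4, 6491.3 ± 1326.1 and 5476.6 ± 1507.5 CPM in the older groups. The 200M difference from WT was -0.06 (adjusted p = 0.86, SE 0.11) in the young and -0.17 (adjusted p = 0.731, SE 0.23) in the older cohort, and the groups overlapped. Reads that Hsd3b1 shares with related genes, such as Hsd3b6, may have been counted for neither.

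**Figure D3:**
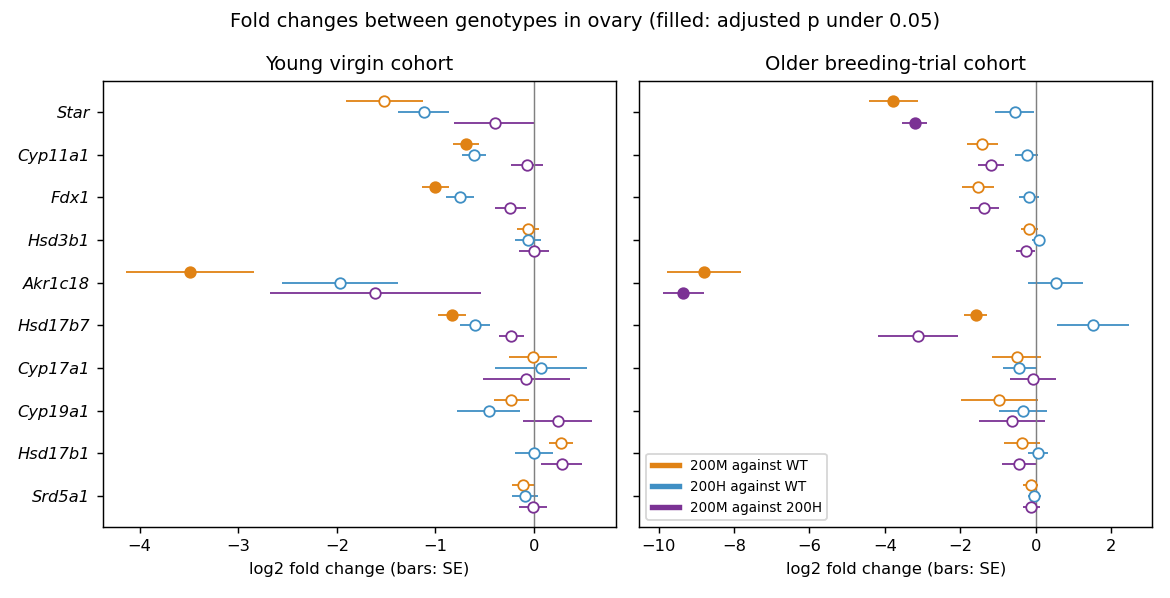
Log2 fold changes of the 10 members in the 3 genotype comparisons of each cohort, with bars of 1 SE and filled points for an adjusted p under 0.05. Filled points lie below 0 for Akr1c18, Hsd17b7, Cyp11a1 and Fdx1 in the young cohort and for Akr1c18, Star and Hsd17b7 in the older one, and the horizontal scales of the panels differ.

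The theca enzyme Cyp17a1 (ENSMUSG00000003555, chr19:46667165-46673172, minus strand) was at 142.0, 273.2, 112.4 and 129.7 CPM in young WT and 129.0, 138.3, 152.1 and 227.7 in 200M, so that the log2 difference was -0.01 (adjusted p = 0.987, SE 0.24). Over the alternatives run it ranged from -0.22 to 0.34. In 200H it ran from 58.9 to 378.0 CPM. In older ovaries it was at 459.5, 1543.5, 574.5 and 580.8 CPM in WT, 338.4 to 820.8 in 200H and 553.1, 892.2, 72.6 and 716.1 in 200M, with a log2 difference of -0.50 (adjusted p = 0.719, SE 0.65) that was -0.15 (adjusted p = 0.882, SE 0.41) without 200M replicate 3. The groups overlapped in both cohorts.

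The granulosa enzymes were not called in any ovary comparison. Aromatase, Cyp19a1 (ENSMUSG00000032274, chr9:54165937-54268110, minus strand), was at 61.7 ± 11.9 CPM in young WT, 44.4 ± 23.2 in 200H and 52.5 ± 16 in 200M, with a 200M difference of -0.23 (adjusted p = 0.614, SE 0.18). In older ovaries it was at 49.6, 196.0, 58.2 and 383.4 CPM in WT, 149.6, 79.4, 214.5 and 94.5 in 200H and 96.5, 147.4, 1.36 and 108.6 in 200M. The library with 1.36 CPM is 200M replicate 3, which was also lowest for Cyp17a1, Hsd17b1 and Inhbb and highest for Adipoq. The older 200M difference was -0.96 (adjusted p = 0.649, SE 1.01), and -0.57 (adjusted p = 0.695, SE 0.66) without that library.

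Hsd17b1 (ENSMUSG00000019301, chr11:101078411-101080527, plus strand), which turns estrone into estradiol, was at 110.3 ± 14.8 CPM in young WT, 109.7 ± 35.4 in 200H and 133.1 ± 23.9 in 200M (log2 difference 0.27, adjusted p = 0.274, SE 0.12). In older ovaries it was at 275.4 ± 91.3, 287.5 ± 79.1 and 215.5 ± 118.1 CPM (log2 difference -0.36, adjusted p = 0.725, SE 0.47). The reductase Srd5a1 (ENSMUSG00000021594, chr13:69573449-69611442, minus strand) was at 33.9 ± 4.39, 31.6 ± 5.56 and 31.5 ± 4.48 CPM in young WT, 200H and 200M and at 68.1 ± 12.3, 66.4 ± 16.1 and 62.3 ± 16 CPM in the older groups. Its 200M differences from WT were -0.11 (adjusted p = 0.723, SE 0.11) and -0.13 (adjusted p = 0.761, SE 0.20), and 476 of its exon bases are shared with the same-strand gene Gm17108.

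In 200H against WT no member was called by edgeR in either cohort. Over all genes 1 of 19621 (0.0051%) was called in the young and 0 of 17605 (0%) in the older cohort, while 1384 and 1160 had an unadjusted p under 0.05 and DESeq2 called 75 and 21. In the young cohort, however, 4 members (Star, Cyp11a1, Akr1c18 and Fdx1) were lower in every 200H than in every WT library, against 2.58% of genes, and DESeq2 called Cyp11a1, Fdx1 and Hsd17b7. In the older cohort this held for 0 members and 2.69% of genes. Since 200H and 200M were set against the same WT libraries, these young differences do not repeat the 200M ones independently. In 200M against 200H, 0 of 19259 genes (0%) were called in the young cohort, with 648 at an unadjusted p under 0.05 and none by DESeq2. In the older cohort 288 of 17855 (1.61%) were called, 0.902% lower, and the members among them were Akr1c18 and Star, both lower in 200M. DESeq2 called Cyp11a1 and Fdx1 as well. No member's 200M effect was called different between cohorts, where 43 of 21786 genes (0.197%) were, and by DESeq2 also no member was.

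Luteal markers that are not enzymes were set beside the members, library by library. In bulk ovary, fewer cells of a type and less RNA per cell cannot be told apart. From ovary sections, the paper reports few corpora lutea in mice with both alleles altered, in both cohorts. It also marks a young ovary sample of that genotype whose opposite ovary did hold corpora lutea, and a young heterozygous sample whose opposite ovary showed none. The labels do not tell which libraries these are, and a link to the levels below was not tested. The prostaglandin receptor Ptgfr was at 127.4 to 237.2 CPM in young WT, at 16.5, 124.4, 19.3 and 105.3 in 200H and at 7.3, 101.7, 7.39 and 7.13 in 200M. The secreted Wnt antagonist Sfrp4 was at 251.7 to 361.4 CPM in young WT, at 15.8, 181.8, 30.3 and 185.3 in 200H and at 7.06, 236.6, 7.24 and 10.5 in 200M. The transcription factor Runx2 was at 151.9 to 217.3 CPM in young WT, at 23.8, 108.6, 38.8 and 150.7 in 200H and at 16.3, 118.3, 17.9 and 15.2 in 200M. Replicate 2 of 200M, the library with the highest Star and Akr1c18 of its group, was thus also the highest in these markers. With that library in the fit, Ptgfr (log2 difference -2.60, adjusted p = 0.0505, SE 0.65), Runx2 (log2 difference -2.02, adjusted p = 0.052, SE 0.51) and Sfrp4 (log2 difference -2.28, adjusted p = 0.171, SE 0.81) did not pass the test. That library was singled out by its levels of these genes, so fits without it do not test them independently. Without it, Ptgfr (-4.74, adjusted p = 3.52e-09), Runx2 (-3.41, adjusted p = 1.01e-09) and Sfrp4 (-5.28, adjusted p = 9.95e-11) were called. Lhcgr (-0.11, adjusted p = 0.849), Cd9 (-0.18, adjusted p = 0.611) and Ptn (-0.0, adjusted p = 0.997), also on the luteal list, were not called in that edgeR fit.

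**Figure D4:**
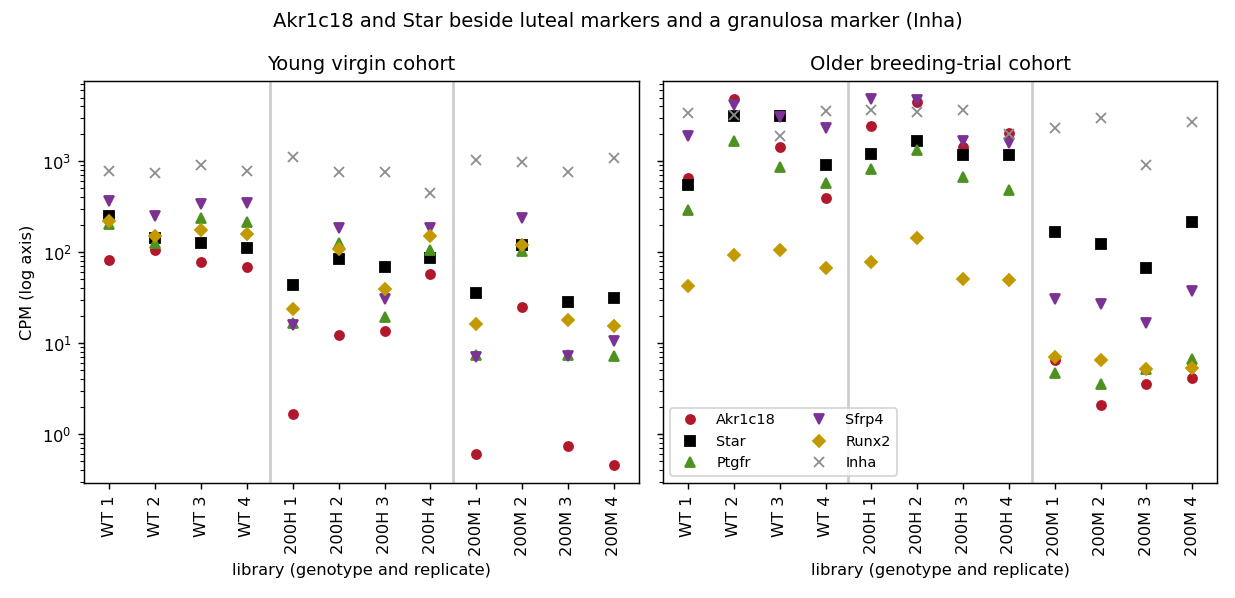
CPM (log axis) of Akr1c18 and Star beside the luteal markers Ptgfr, Sfrp4 and Runx2 and the granulosa marker Inha in each ovary library. In the young cohort 200M replicate 2 lies above the other 200M libraries in all genes but Inha, and in the older cohort all 4 200M libraries are low in the 5 luteal-side genes.

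Of the 8 luteal markers, 2 were lowered (Prlr and Parm1) and none raised in young 200M against WT, with a median log2 fold change of -0.54. Without 200M replicate 2, 5 were lowered. In that fit 5 of the 7 oocyte markers, 3 granulosa markers and 1 theca marker were also called raised. There 1 macrophage marker was called lowered, so the calls were not confined to luteal markers. Prlr was not called without WT replicate 1, 3 or 4 or without 200M replicate 1, and Parm1 was called only without 200M replicate 2 or WT replicate 3. Summed over the list, the levels ran from 3229.7 to 4702.6 CPM in WT, 1847.6 to 2901.5 in 200H and 1773.4 to 3904.2 in 200M. In older ovaries 3 were lowered, Ptgfr (log2 difference -7.37, adjusted p = 0.00152, SE 0.60), Sfrp4 (log2 difference -6.68, adjusted p = 0.000378, SE 0.37) and Runx2 (log2 difference -3.67, adjusted p = 0.00147, SE 0.29), and 2, Cd9 and Ptn, were raised. The 3 lowered markers were called in all 8 fits without 1 library, whereas Cd9 was called only without WT replicate 1 or 200M replicate 2 and Ptn only without WT replicate 4, with adjusted p of up to 0.12 and 0.124. The sum ran from 3335.7 to 8551.6 CPM in WT, 3346.2 to 8337.1 in 200H and 523.2 to 1873.4 in 200M. None of the 8 was under 1 CPM in all libraries of a group, and Lhcgr was called in 200M against WT in neither cohort. Granulosa markers ran from 2075.9 to 2590.7 CPM in sum in young WT and 2381.7 to 3237.8 in 200M, with Esr2 (log2 difference 0.71, adjusted p = 0.00499, SE 0.10) and Nr5a2 raised (the latter not in 6 of the 8 fits without 1 library), and from 3227.2 to 5683.3 and 1832.8 to 5487.7 CPM in older WT and 200M, with none called. Of the theca markers, Insl3 was raised in older 200M (log2 difference 1.6, adjusted p = 0.012, SE 0.23), from 10.7 ± 1.2 to 32.4 ± 9.69 CPM, although Cyp17a1 was not called there, and the call was lost without WT replicate 2 (adjusted p = 0.0601). The other 4 theca markers were not called, the median over the 5 was 0.02, and their sum was at 714.8 to 1571.9 CPM in older WT and 342.8 to 1375.6 in older 200M. In the young cohort none of the 5 was called, with sums of 2016.4 to 2869.1 CPM in WT and 1580.4 to 3475.7 in 200M. Lhcgr, which stands on both the luteal and the theca list, made up most of these young theca sums. It was at 1661.7 to 2525.7 CPM in young WT and 1146.7 to 3010.7 in young 200M. The summed macrophage markers were at 94.4 to 173.7 CPM in older WT and 192.0 to 481.3 in older 200M, and at 71.6 to 96.7 and 69.7 to 82.7 CPM in young WT and 200M, with none of the 4 called against WT in either cohort. Cd68 was called against WT only without older 200M replicate 3 (adjusted p = 0.0356), and against 200H in older 200M. The part of these cell types in the members' differences was not tested.

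Within single libraries the ratio of Akr1c18 to Cyp11a1 CPM was 0.0679 to 0.12 in young WT and 0.00082 to 0.00147 in young 200M apart from replicate 2, where it was 0.0285. In 200H it was spread over 0.00204, 0.0164, 0.0247 and 0.105. In older ovaries it was 0.048 to 0.359 in WT, 0.162 to 0.554 in 200H and 0.000694 to 0.00244 in 200M. Akr1c18 was thus low in 200M also relative to Cyp11a1. The ratio of Cyp19a1 to Cyp11a1 was 0.0435 to 0.0721 in young WT and 0.0636 to 0.128 in young 200M, and 0.00619 to 0.0464 in older WT and 0.000945 to 0.0495 in older 200M, so the ranges overlapped in both cohorts.

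**Figure D5:**
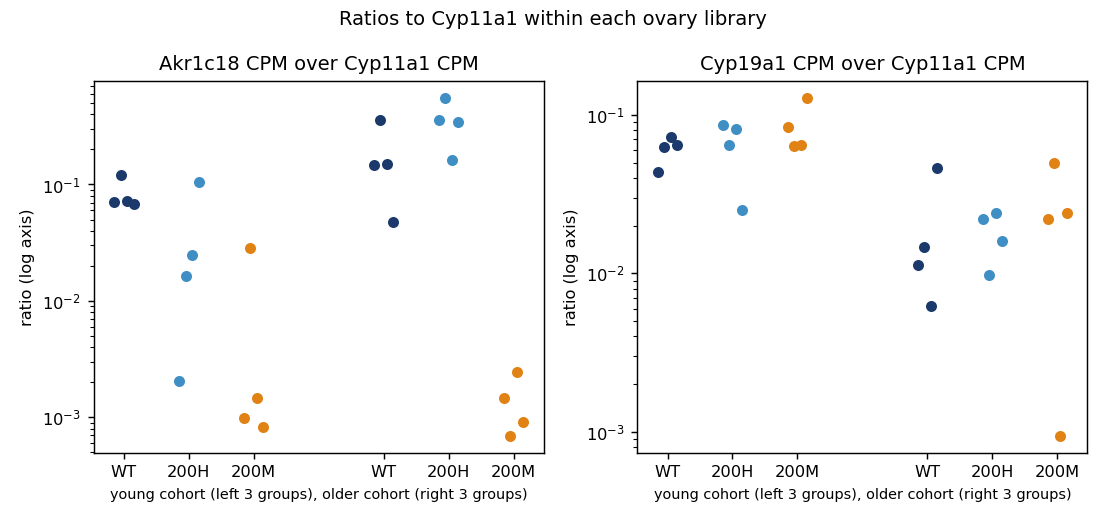
Ratio of Akr1c18 (left) and Cyp19a1 (right) to Cyp11a1 CPM in each ovary library (log axes), 1 point per library, with the young groups on the left of each panel and the older groups on the right. The 200M points of the first ratio lie below 0.003 except for young replicate 2, and those of the second overlap WT.

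The genes whose levels followed a member most closely were sought among 11687 genes over the 24 ovary libraries, after centring log2(CPM + 1) within each cohort. For Akr1c18 they were Onecut2, Ptgfr and Sfrp4, with root mean square differences of 0.86, 0.92 and 0.99, where Akr1c18 itself varied by 3.34. For Cyp11a1, which varied by 0.65, they were Slc25a30, Prlr and Scarb1 (0.24 each), the last a receptor that takes up cholesterol from lipoproteins. For Cyp17a1 (0.87) they were Fads2 (0.48), Prkar2b (0.49) and Lhcgr (0.51), the receptor for luteinizing hormone, and for Cyp19a1 (1.32) they included Inhba (0.42) and Grem1 (0.48), the first of which encodes an activin subunit made by granulosa cells. The libraries share dissection and staging, and differences between genotypes were left in, so this likeness is a description.

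Of 47 other genes of the pathway, 45 had a gene ID and 37 were tested in young 200M against WT. There, 4 were lowered and 3 raised, with a median log2 fold change of -0.10. The lowered genes were Fdxr, the reductase that feeds Fdx1 (48.2 ± 2.58 CPM in WT, 33.6 ± 6.29 in 200M, log2 difference -0.51, adjusted p = 0.0256, SE 0.11), the prolactin receptor Prlr (1244.7 ± 199.2 and 763.2 ± 165.6 CPM, log2 difference -0.70, adjusted p = 0.0213, SE 0.14), the steroid reductase Srd5a2 and the conjugating enzyme Ugt1a1. Prlr and Nr5a2 also stand on the luteal and granulosa marker lists. Srd5a2 was low, at 3.09 ± 1.0 CPM in WT and 0.93 ± 0.43 in 200M (log2 difference -1.68, adjusted p = 0.0394, SE 0.39). The raised genes were the nuclear receptor Nr5a2 (log2 difference 0.39, adjusted p = 0.0473, SE 0.10), the electron carrier Cyb5a (log2 difference 0.33, adjusted p = 0.0478, SE 0.08) and Akr1c14 (log2 difference 0.45, adjusted p = 0.0385, SE 0.11), a relative of Akr1c18. These calls were fragile, since 0 of the 45 passed without WT replicate 1, without WT replicate 4 or without 200M replicate 1. In older ovaries 34 were tested and none was called in edgeR, where 10 had an unadjusted p under 0.05, while DESeq2 called 7, among them Prlr, Srd5a2 and Fshr.

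In pituitary and hypothalamus the members were low. Akr1c18, Cyp17a1, Cyp19a1, Hsd3b1, Hsd17b1 and Cyp11a1 stayed under 2 CPM in every library of both tissues and cohorts. Fdx1, the ferredoxin that also serves other mitochondrial enzymes, was at 6.99 to 16.2 CPM and Hsd17b7 at 2.92 to 26.6 CPM across these libraries. Star was at 7.94 to 14.0 CPM in older pituitary and 11.6 to 15.5 in older hypothalamus, and at 0.75 to 3.3 and 0.81 to 2.13 CPM in the young tissues, which were prepared differently. Of 12 comparisons, 1 member was called in 1. Star was higher in older 200H than in WT pituitary, at 11.9, 14.0, 11.9 and 11.9 against 9.31, 7.94, 9.7 and 9.38 CPM (log2 difference 0.46, adjusted p = 0.0416, SE 0.13). The call was lost in 6 of the fits without 1 library and in DESeq2, and older 200M pituitaries, at 8.49 to 12.9 CPM, overlapped WT.

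That count stands against many calls in pituitary and, by edgeR, few in hypothalamus. In young pituitary 21.5% of genes were called in 200M against WT, 12.3% in 200H against WT and 0.0383% in 200M against 200H, and in older pituitary 21.4%, 12.2% and 0.121%. In young hypothalamus the shares were 0.02%, 0.0202% and 0%, and in older hypothalamus 0.00622%, 0% and 0%. The older hypothalamus shares depended on the method. There DESeq2 called 618 of 12959 genes in 200M against WT and 667 of 9390 in 200M against 200H, with no member among them. In edgeR 2904 and 3144 genes had an unadjusted p under 0.05 in these comparisons. Of the 10 members, 3 to 5 passed the filter on low counts in each of these 12 comparisons.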

How the data were processed

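The authors deposited 18 tables of raw counts per gene and library beside their own DESeq2 results, whose fold changes and p-values were not used. Per the submitters' processing notes and the study's methods, reads were aligned with STAR 2.7.1a to mm10 (GRCm38) and counted with featureCounts on GENCODE genes, on the reverse strand for the young and unstranded for the older ovaries, or with HTSeq 0.9.1 on Ensembl genes (older pituitary and hypothalamus). Counts of a library repeated in several tables differed in 0 values. In a young pituitary table whose header repeats a sample name, 3 count columns were not used, and 1 young WT pituitary column without a usable number was kept as a replicate of its group and left out of blocked fits.

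Under R 4.3.3, edgeR 4.0.16 (limma 3.58.1) compared the deposited counts of each pair of genotypes within tissue and cohort, with TMM scaling, filterByExpr, the quasi-likelihood F test and Benjamini-Hochberg adjustment over all genes, called under 0.05. The 200M effect was compared between cohorts by an interaction term. The SE given for edgeR was the size of the log2 fold change divided by the square root of its F statistic. Alternatives were DESeq2 1.42.0, DESeq2 size factors, no filter, a replicate block, all 3 genotypes in 1 fit and leaving out each library. The procedure was checked on simulated data. Symbols named 99.54% of IDs. Positions and exon lengths (union of exons) are those of GENCODE M21 basic on GRCm38, promoters those of RefSeq. Members, marker lists and rules for named genes were chosen with earlier results of these data known. All members are named, other pathway genes where called in 200M against WT in ovary, and for each of 4 members the 3 genes of most like pattern with a mean of at least 5 CPM in each ovary cohort, of which 1 is not reported here. Further marker genes were named after their values were seen. Pairs of libraries within a group differed by more than counting noise (lowest chi-square per degree of freedom 1.886 over 99 pairs). Depth of 6337205 to 14655095 counts per ovary library limits precision for genes of a few CPM.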

Additional observations from a re-analysis of the deposited data

Results flagged for a closer look

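In 60 groups of 4 ovary libraries (10 members, 6 groups), 7 held a library set apart from the other 3. The gap took up more of the group's range than Dixon's 95% critical value allows. Chance does this in about 1 of 20 groups if values are normal and groups independent. Neither was shown here, since CPM was not put on a log scale and the members share libraries. In young 200M replicate 2, Star was at 119.1 CPM against 28.2 to 35.7 and Akr1c18 at 24.8 against 0.46 to 0.74. In young 200H replicate 2, Hsd17b7 was at 66.5 CPM against 46.4 to 49.6. In older 200H replicate 2, Hsd17b7 was at 1544.3 CPM against 65.5 to 132.0 and Star at 1653.8 against 1166.9 to 1207.7. In older WT replicate 2, Cyp17a1 was at 1543.5 CPM against 459.5 to 580.8 and Hsd3b1 at 7619.9 against 5575.3 to 5921.3.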

How the results depend on the processing

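The 4 members called in young 200M against WT became 2 with all 3 genotypes in 1 fit and 2 to 5 when 1 library was left out, with 2 (Hsd17b7 and Fdx1) without 200M replicate 1 or 3. The 3 called in older 200M against WT became 5 in DESeq2, 1 with the replicate block and 1 to 3 when 1 library was left out. Akr1c18 was the 1 left without WT replicate 2 or 3 or without 200M replicate 1, 2 or 4. The 2 called in older 200M against 200H became 4 in DESeq2. In young 200H against WT the 0 called became 3 in DESeq2, 6 without a filter and 0 to 2 when 1 library was left out (2 without 200H replicate 1). Without a filter the 0 called in young 200M against 200H and in the cohort difference each became 1 (Akr1c18), and the median of all genes in young 200H against WT moved to 0.12. There the SE of Akr1c18 was 0.14 against 0.59 with the filter. The 1 call in pituitary and hypothalamus became 0 in DESeq2 and with the replicate block, 2 without a filter and with all genotypes in 1 fit, and 0 to 1 when 1 library was left out. The 7 other pathway genes called in young ovary became 0 with the block and with all genotypes in 1 fit, and 0 to 10 when 1 library was left out. The 0 called in older ovary became 7 in DESeq2, 1 without a filter, 2 with all genotypes in 1 fit and 0 to 1 when 1 library was left out. The cause of these changes was not tested. Correlations of the deviations of same-numbered ovary libraries ran from -0.648 to 0.45. They do not settle whether replicate numbers pair mice, and the labels do not say. Of 780 alternative values for single members, 0 of a called difference changed sign and 58 of uncalled ones did. With 4 libraries a group and wide spread in older ovaries, moderate differences could be missed.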
